A study of Mus musculus with 18 samples.

Results

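The immunoglobulin genes and the J chain gene are described here in neutrophils sorted from the spleens of NZBWF1/J mice. They were taken by symbol from the deposited count table: Jchain, every row named as a heavy, kappa or lambda constant region gene, and every row named as a V, D or J segment. The rule uses names alone, and it found 131 of the 17941 gene symbols. Of these, 1 was Jchain, 10 were constant region genes (6 heavy, 1 kappa, 3 lambda) and 120 were segments (72 heavy V, 4 heavy J, 37 kappa V, 2 kappa J, 3 lambda V, 2 lambda J). All 131 were matched to GENCODE M21 gene models on GRCm38, where 23 are annotated as pseudogenes, 22 of them heavy V segments. The same models hold 183 heavy V, 160 kappa V and 3 lambda V segments in all.

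The study measured RNA from spleen neutrophils of untreated female NZBWF1/J mice, the hybrid of the NZB and NZW strains that develops a lupus-like disease, at 14, 20 and 26 weeks of age. Each age had 6 libraries, called biological replicates in the titles, and all mice were of the same strain and sex. Cells were sorted live (DAPI-) as Ly6b+, Ly6Cint, CD11b+, Ly6G+ singlets. The labels do not state that each library came from a different mouse, so p-values measure the spread between these libraries. Below, a library is named by its age and replicate number. CPM is the count scaled to a common library size by TMM factors, a log2 change is the fitted value ± SE, and a gene is called at an edgeR quasi-likelihood adjusted p under 0.05 over all genes tested.

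An antibody is built from heavy and light chains. Each chain is made from a variable part, joined in the DNA of a developing B cell from a V and a J segment (and a D segment in the heavy chain), and from a constant part that sets the class of the heavy chain or the type of the light chain. A B cell and its offspring therefore carry the same V segments, and plasma cells, which secrete the antibody, hold very large amounts of these transcripts. The mu constant gene Ighm gives IgM, Ighd gives IgD, the gamma genes give the IgG classes, and Jchain encodes the small protein that links IgM or IgA units into polymers. V and J segments are joined in developing lymphocytes, and IgG autoantibodies are a hallmark of the disease in this strain.

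The sequences that carry the main pattern are shown first. In the libraries with many light chain reads, most light V reads of a library fell on a few segments. The lambda V segments lie on chromosome 16, and Iglv1 and Iglv2 are 96.87% identical over 351 coding bases, whereas Iglv3 is 60.76% identical to Iglv1. Their last 150 coding bases on the minus strand of GRCm38 are given here because the 3 segments led in different libraries. Capitals mark the bases at which Iglv1 and Iglv2 differ.
Iglv1 (chr16:19085017-19085166): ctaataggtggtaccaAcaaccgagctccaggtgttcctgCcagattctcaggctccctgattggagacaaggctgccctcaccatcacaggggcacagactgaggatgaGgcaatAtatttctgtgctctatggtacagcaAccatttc
Iglv2 (chr16:19260401-19260550): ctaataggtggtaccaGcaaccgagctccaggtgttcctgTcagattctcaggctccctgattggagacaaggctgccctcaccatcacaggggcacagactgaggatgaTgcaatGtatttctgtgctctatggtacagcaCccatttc
Iglv3 (chr16:19241207-19241356): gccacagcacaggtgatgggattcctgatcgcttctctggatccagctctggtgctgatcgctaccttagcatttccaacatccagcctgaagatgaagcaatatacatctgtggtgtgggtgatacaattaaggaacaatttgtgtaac
The lambda constant genes that were counted beside them begin as follows, each shown for its first 120 coding bases. Capitals mark the bases at which Iglc2 and Iglc3, 96.5% identical over 314 bases, differ. Iglc1 is 74.76% identical to Iglc2.
Iglc1 (chr16:19061952-19062071): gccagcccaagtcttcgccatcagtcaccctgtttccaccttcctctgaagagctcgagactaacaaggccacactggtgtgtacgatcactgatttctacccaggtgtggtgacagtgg
Iglc2 (chr16:19198734-19198853): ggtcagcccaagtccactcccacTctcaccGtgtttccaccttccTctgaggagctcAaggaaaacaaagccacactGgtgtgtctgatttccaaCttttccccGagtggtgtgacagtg
Iglc3 (chr16:19065562-19065681): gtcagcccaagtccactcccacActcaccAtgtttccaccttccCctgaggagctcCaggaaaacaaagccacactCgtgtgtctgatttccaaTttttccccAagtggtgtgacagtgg
In the direction of transcription the order on the minus strand is Iglv2, Iglv3, Iglc2, Iglv1, Iglc3, Iglc1. Iglj1 lies before Iglc1 and Iglj3 before Iglc3 in that direction, and both are shown whole because they had counts.
Iglj1 (chr16:19063225-19063262): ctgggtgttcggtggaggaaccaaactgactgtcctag
Iglj3 (chr16:19067041-19067078): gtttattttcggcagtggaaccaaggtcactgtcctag
The kappa V segments that led a library lie on chromosome 6 and are less alike, from 60.24% to 86.08% identical in pairs. Their last 60 coding bases are shown, with the codon of the conserved cysteine before the junction in capitals.
Igkv12-89 (chr6:68834846-68834905, minus strand): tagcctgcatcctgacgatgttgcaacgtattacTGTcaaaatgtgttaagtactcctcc
Igkv4-59 (chr6:69438218-69438277, minus strand): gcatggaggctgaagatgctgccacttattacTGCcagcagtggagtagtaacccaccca
Igkv12-41 (chr6:69858420-69858479, minus strand): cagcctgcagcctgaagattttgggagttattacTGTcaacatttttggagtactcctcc
Igkv4-91 (chr6:68768555-68768614, minus strand): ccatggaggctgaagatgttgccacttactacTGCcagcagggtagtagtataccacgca
Igkv1-135 (chr6:67610449-67610508, plus strand): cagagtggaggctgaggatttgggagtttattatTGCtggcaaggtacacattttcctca
The heavy V segments Ighv1-20 and Ighv1-37, on chromosome 12, are 98.58% identical over 351 coding bases and were counted together in the same libraries. Their last 150 bases are shown, with the 2 differing bases in capitals.
Ighv1-20 (chr12:114723772-114723921, minus strand): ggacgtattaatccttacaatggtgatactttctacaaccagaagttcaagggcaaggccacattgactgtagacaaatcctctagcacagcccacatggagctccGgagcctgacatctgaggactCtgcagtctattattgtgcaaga
Ighv1-37 (chr12:114896238-114896387, minus strand): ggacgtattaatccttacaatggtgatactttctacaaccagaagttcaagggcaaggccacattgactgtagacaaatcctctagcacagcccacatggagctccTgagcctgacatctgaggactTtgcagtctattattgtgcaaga
All sequences are those of GENCODE M21 transcripts on the reference strain C57BL/6J. The strain studied carries other alleles, reads from near-identical segments may be shared or lost in the counting, and the part of either in these counts was not tested.

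The sum over all 131 rows was low at 14 weeks, high in most libraries at 20 weeks and in between at 26 weeks. It was 98.5, 227.8, 162.9, 96.7, 178.6 and 142.8 CPM in replicates 1 to 6 at 14 weeks. At 20 weeks it was 3653, 204.9, 3843, 5722, 569.3 and 2934 CPM. At 26 weeks it was 357.1, 132.7, 507.6, 952, 630.2 and 150.7 CPM. Of the 20 week libraries, only replicate 2 lay within the range of 14 weeks, and at 26 weeks replicates 2 and 6 did. As a share of the library these sums were 0.00926% to 0.0224% at 14 weeks, 0.0225% to 0.622% at 20 weeks and 0.0124% to 0.0986% at 26 weeks. The number of rows with at least 1 count did not follow the sums: 31 to 60 of 131 at 14 weeks, 33 to 64 at 20 weeks and 36 to 56 at 26 weeks.

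**Figure D1:**
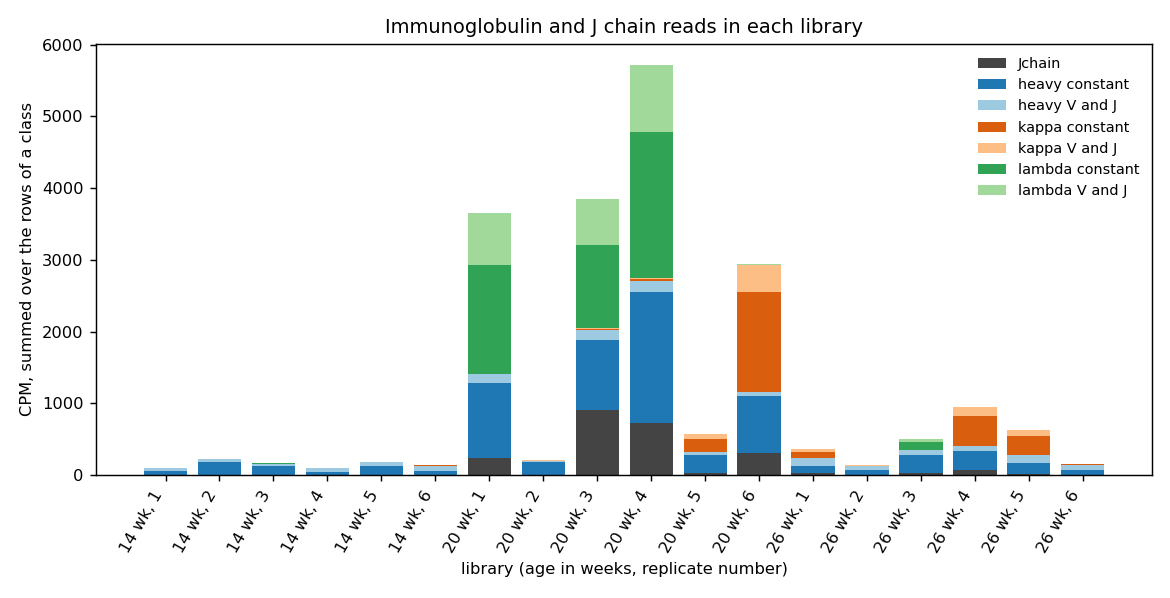
CPM summed over the rows of each class (vertical axis) in each of the 18 libraries (horizontal axis, age and replicate number), with colours for the J chain, heavy, kappa and lambda classes. Replicates 1, 3, 4 and 6 at 20 weeks stand at 2934 CPM or more, and the lambda classes make up much of replicates 1, 3 and 4 while kappa makes up much of replicate 6.

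Library totals ran from 5546624 to 17256379 counts, and 10104 genes had enough counts to be tested. Replicate 3 at 20 weeks had counts in 8119 genes, against 10357 to 13164 in the other libraries. Only 19 of the 131 rows passed the filter on low counts: Jchain, Ighm, Ighd, Igkc and 15 heavy V segments. A row can pass through the age at which it is high, so counts over these 19 do not speak for all 131. Markers of neutrophils (14 genes, such as Ly6g, S100a8 and Lcn2) summed to 53021 to 128761 CPM at 20 weeks, 151024 to 216434 at 14 weeks and 165946 to 332978 at 26 weeks.

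Jchain (chr5:88519809-88527891, minus strand), the linker of polymeric antibody, was close to 0 at 14 weeks and present in every library at 20 weeks. At 14 weeks it was at 0, 0.511, 0.488, 0.171, 0 and 0 CPM in replicates 1 to 6, 14 counts in all. At 20 weeks it was at 235.1, 2.77, 904.4, 728.3, 27.5 and 304.2 CPM. At 26 weeks it was at 28.0, 0, 21.4, 67.2, 18.4 and 0 CPM. All 6 libraries at 20 weeks and 4 of 6 at 26 weeks stood above every library at 14 weeks, and 4 at 20 weeks stood above every library at 26 weeks. A count of 3 corresponds to 0.170 to 0.627 CPM over the libraries, so the 14 week values lie at or near the least that could be seen, and zeros allow values up to that level. Jchain rose at 20 against 14 weeks by 10.72 ± 1.67 on the log2 scale (adjusted p = 0.000651). It was higher at 26 than at 14 weeks by 6.70 ± 1.55 (adjusted p = 0.00920) and fell by 4.03 ± 1.14 from 20 to 26 weeks (adjusted p = 0.0199). The size against 14 weeks depends on the prior count used by edgeR. Jchain did not pass the filter when only 14 and 26 weeks were fitted, so the test of that pair exists through the 20 week libraries. With no filter it gave 6.74 (adjusted p = 0.0356). In limma-voom with quality weights the 3 changes were 9.39, 2.93 and -6.46 and none was called (adjusted p = 0.106, 0.676 and 0.105), and the fall was also not called without the filter (adjusted p = 0.0770) or with only those ages in the fit (adjusted p = 0.0560).

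Ighm (chr12:113418558-113422730, minus strand), the mu heavy chain, was counted in all 18 libraries. Its levels were 57.9, 179.1, 118.4, 45.4, 131.8 and 56.7 CPM at 14 weeks. They were 1052, 173.3, 982.5, 1820, 252.9 and 784.9 CPM at 20 weeks. They were 97.4, 66.3, 263.7, 175.0, 152.8 and 64.7 CPM at 26 weeks. At 20 weeks 5 of 6 libraries lay above every 14 week library and 4 above every 26 week library, while 14 and 26 weeks overlapped. Ighm rose by 3.10 ± 0.53 on the log2 scale from 14 to 20 weeks (adjusted p = 0.00120) and fell by 2.63 ± 0.52 from 20 to 26 weeks (adjusted p = 0.00194). Between 14 and 26 weeks its change was 0.48 ± 0.49 (adjusted p = 0.649). The 2 calls of Ighm held in every other fit made.

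Igkc (chr6:70726435-70726966, plus strand), the constant part of the kappa light chain, ranged widely between libraries of the same age. It was at 0, 1.88, 1.06, 1.37, 0.0959 and 12.4 CPM at 14 weeks. At 20 weeks it was at 3.36, 6.35, 23.1, 29.8, 170.3 and 1391 CPM. At 26 weeks it was at 91.3, 1.98, 2.38, 411.0, 260.1 and 5.94 CPM. At 20 weeks 4 libraries lay above every 14 week library, at 26 weeks 3 did, and the highest and lowest value within an age differed far more than the medians of 20 and 26 weeks. Igkc rose by 6.58 ± 1.74 on the log2 scale from 14 to 20 weeks (adjusted p = 0.0194) and was higher at 26 than at 14 weeks by 5.50 ± 1.66 (adjusted p = 0.0379). From 20 to 26 weeks its change was -1.07 ± 1.35 (adjusted p = 0.663). The first call was lost without replicate 4 at 14 weeks (adjusted p = 0.0538), without replicate 6 at 20 weeks (4.04 ± 1.40, adjusted p = 0.0918), in limma-voom (0.191), without the filter (0.0764) and with the replicate number as a block (0.0530). The second was lost in limma-voom (adjusted p = 0.411), without the filter (0.123) and with the block (0.0546). It was also lost without any of replicates 1, 2, 3, 4 and 5 at 14 weeks (adjusted p = 0.0797, 0.0809, 0.0808, 0.0884 and 0.0829) and of replicates 1, 4 and 5 at 26 weeks (0.0653, 0.0628 and 0.0756).

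**Figure D2:**
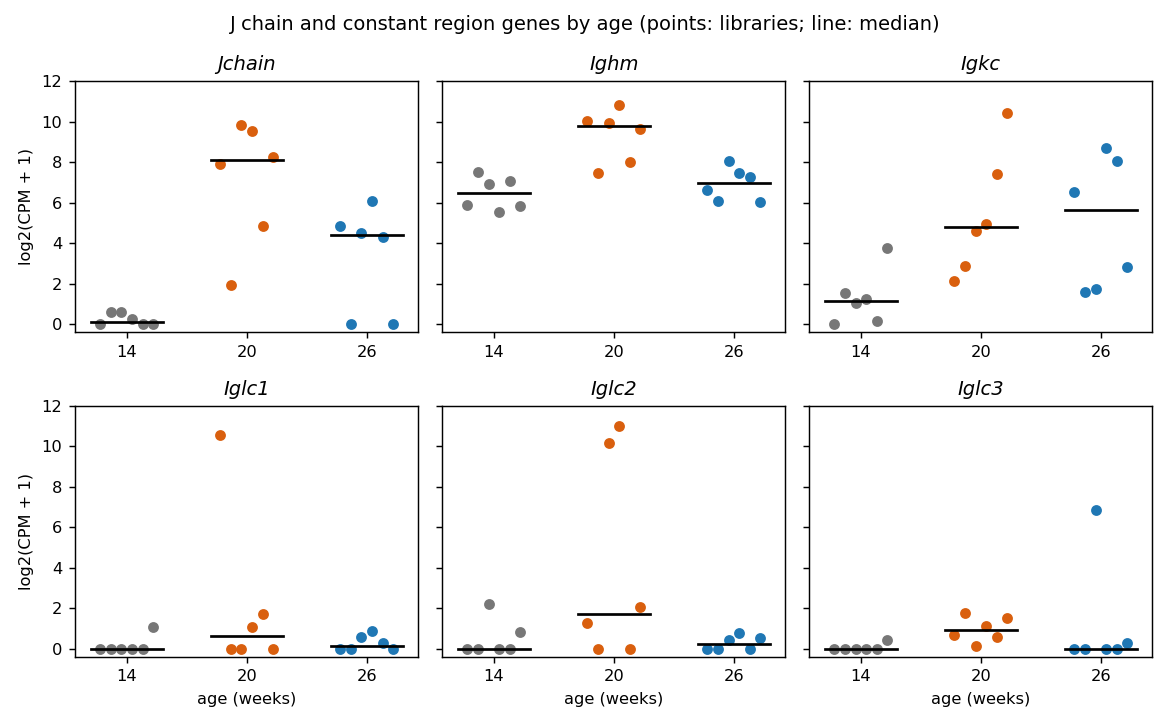
log2(CPM + 1) of Jchain and 5 constant region genes (vertical axis) by age in weeks (horizontal axis), with a point for each library and a line at the median of 6. All Jchain points at 20 weeks lie above those at 14 weeks, while Iglc1 has 1, Iglc2 has 2 and Iglc3 has 1 point far above the others.

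The calls can be read against all genes tested. At 20 against 14 weeks 3 of the 19 tested rows were called higher (Jchain, Ighm, Igkc) and 0 lower, where 4.93% of all genes tested were called higher and 5.27% lower. At an unadjusted p under 0.05 there were 5 rows, the same 3 and, lower, Ighv1-19 and Ighv1-28, and DESeq2 called 3 higher and 0 lower. At 26 against 14 weeks 2 were called higher (Jchain, Igkc) and 0 lower, beside 5.45% and 5.54% of all genes. At 26 against 20 weeks 4 were called higher, all heavy V segments, and 2 lower (Ighm, Jchain), beside 8.03% and 7.98% of all genes. The median log2 change of the 19 tested rows was -0.73, 0.83 and 1.34 in the 3 comparisons, in that order, where the median of all genes tested was -0.02, 0.04 and 0.05. Of the 19 rows 15 are heavy V segments, so these medians are values of heavy V rows. The 3 comparisons share libraries, so their calls are not independent. Without replicate 3 at 20 weeks, the library with the fewest genes counted, Jchain, Ighm and Igkc were still called at 20 against 14 weeks (10.22 ± 1.64, 3.05 ± 0.55 and 6.82 ± 1.74, adjusted p = 0.00105, 0.00218 and 0.0164). The falls of Ighm and Jchain to 26 weeks were also still called (-2.58 ± 0.54 and -3.52 ± 1.1, adjusted p = 0.00341 and 0.0363).

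Other heavy chain classes were scarce. Ighd, the delta constant gene, had 199 counts in 8 libraries, from 4 to 58 where present, and was not called in any comparison (26 against 14 weeks: 0.31 ± 1.69, adjusted p = 0.948). Ighm took 94.6% to 100% of the heavy constant counts in 17 libraries. Replicate 4 at 26 weeks was the exception, with Ighm at 64.6% (95% exact binomial interval 62.7% to 66.4%, counting error only) or 58.4% after division by exon length. There Ighg2c, the IgG2 gene that the reference strain carries in place of Ighg2a, had 768 counts (79.4 CPM), Ighg2b had 144, Ighg3 had 13 and Ighg1 had 2. Ighg2c had 0 counts in the other 17 libraries, and Ighg2b had 1 count in them. Ighg3 reached 35 counts in replicate 6 at 20 weeks and 6 in replicate 6 at 26 weeks, and was at 0 in every 14 week library. The 6 heavy constant rows found by name were Ighm, Ighd, Ighg1, Ighg2b, Ighg2c and Ighg3, so Igha and Ighe were not analysed here.

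Lambda and kappa were used in different libraries. Iglc1 held 18414 counts (1510 CPM) in replicate 1 at 20 weeks and at most 2.26 CPM in any other library. Iglc2 held 12136 counts (1160 CPM) in replicate 3 and 21935 (2042 CPM) in replicate 4 at 20 weeks, and at most 3.58 CPM elsewhere. Iglc3 held 2033 counts (115.0 CPM) in replicate 3 at 26 weeks and at most 2.34 CPM elsewhere. In these 4 libraries Igkc was 0.222%, 1.96%, 1.44% and 2.01% of the light constant counts. In replicates 5 and 6 at 20 weeks and 1, 4 and 5 at 26 weeks, the other libraries with at least 100 light V reads, Igkc was 98.4%, 99.6%, 100%, 99.6% and 99.9%. None of these 9 libraries lay between these ends. Lambda light chains are known to be the minor type in the mouse.

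The V segments followed the constant genes. In replicate 1 at 20 weeks Iglv1 had 8881 counts and Iglj1 30, beside Iglc1. In replicate 3 at 20 weeks Iglv3 had 6673 counts and in replicate 4 Iglv2 had 10061, both beside Iglc2. In replicate 3 at 26 weeks Iglv2 had 800 counts and Iglj3 2, beside Iglc3. In each of the 4 the V segment lies before the constant gene in the direction of transcription. Iglv1 and Iglv2, nearly identical in the sequences printed above, were still told apart: in replicate 1 at 20 weeks Iglv2 was at 0 counts, and in replicate 4 Iglv1 had 13. Among kappa segments Igkv12-89 led replicate 5 at 20 weeks with 706 counts and Igkv4-59 led replicate 6 with 2678, where Igkv5-39 followed with 966. At 26 weeks Igkv1-135 led replicate 1 with 177 counts, Igkv12-41 led replicate 4 with 725 and Igkv4-91 led replicate 5 with 377.

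At least 100 light V reads were found in 9 libraries, 0 of 6 at 14 weeks, 5 of 6 at 20 weeks and 4 of 6 at 26 weeks. The leading segment took 99.9%, 99.3%, 98.9%, 97.9% and 70.6% of them in replicates 1, 3, 4, 5 and 6 at 20 weeks. It took 60%, 98.3%, 57.0% and 86.7% in replicates 1, 3, 4 and 5 at 26 weeks. The 95% exact binomial intervals of the lowest and the highest were 54.22% to 59.74% and 99.84% to 99.97%. In 5 of the 9 libraries a single segment thus held over 95%, with a median of 97.9%, and 8 different segments led the 9 libraries, Iglv2 being the one that led 2. Thinned to 100 reads, the light V reads of these libraries fell on 1.08 to 5.46 segments on average. Of the 40 light V rows, 20 had counts in 1 library only and 29 had over 90% of their counts in 1 library. Most are thin: of the 12 rows with at least 100 reads, 9 had over 90% in 1 library and Igkv4-59 alone was confined to 1.

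**Figure D3:**
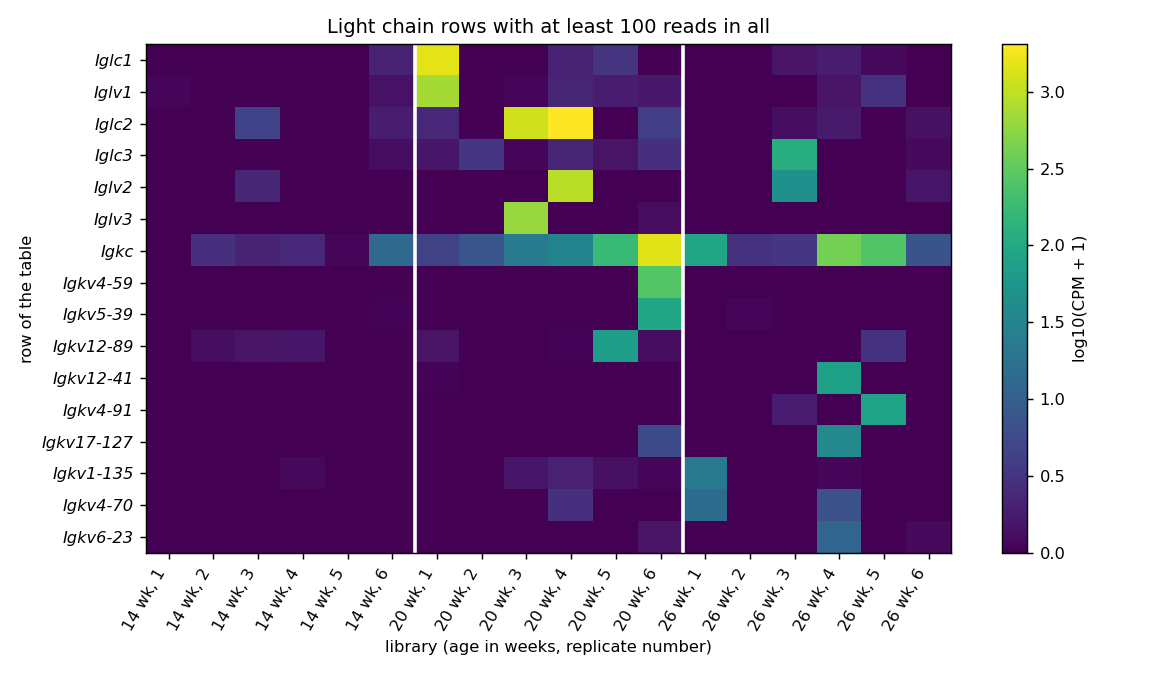
Colour gives log10(CPM + 1) of each light chain row with at least 100 reads in all (vertical axis) in the 18 libraries (horizontal axis, white lines between ages). Bright cells stand alone in most rows: Iglc1 with Iglv1 in replicate 1, Iglc2 with Iglv3 in replicate 3 and Iglc2 with Iglv2 in replicate 4 at 20 weeks, and Iglc3 with Iglv2 in replicate 3 at 26 weeks.

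The other 9 libraries, all 6 at 14 weeks, replicate 2 at 20 weeks and replicates 2 and 6 at 26 weeks, had few light chain reads beside Ighm. They held 530 to 2374 counts of Ighm but 0 to 169 counts of all light constant genes together and 0 to 63 light V reads. The light constant to Ighm ratio in CPM was 0, 0.0105, 0.0391, 0.0302, 0.000728 and 0.258 at 14 weeks. At 20 weeks it was 1.44, 0.0501, 1.20, 1.14, 0.684 and 1.78, and at 26 weeks it was 0.937, 0.0298, 0.448, 2.36, 1.70 and 0.102. The libraries were split by light V reads, so a lower ratio in the 9 with few is no separate finding, and replicate 6 at 14 weeks, with 63 light V and 656 Ighm counts, was the highest of them. This ratio was not divided by gene length, so its absolute size carries no meaning. The Jchain to Ighm ratio ran likewise from 0 to 0.00412 at 14 weeks and reached 0.921 in replicate 3 at 20 weeks.

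**Figure D4:**
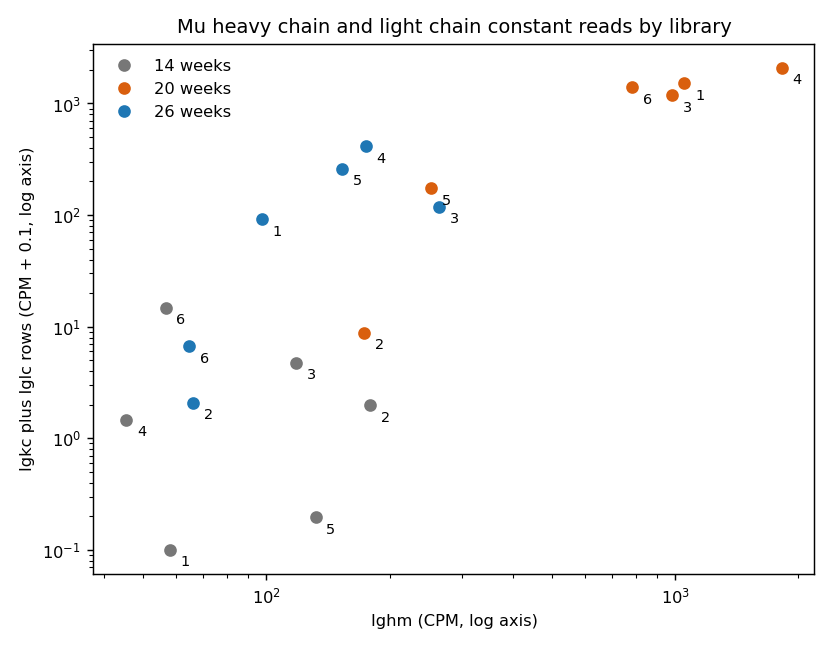
Sum of the kappa and lambda constant genes in CPM + 0.1 (vertical log axis) against Ighm in CPM (horizontal log axis), a point for each library with its replicate number and a colour for each age. The 14 week libraries span 45.4 to 179.1 CPM of Ighm with light chain sums of at most 14.6 CPM, while 4 libraries at 20 weeks lie at the upper right.

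Some heavy V segments were counted in every library and others mostly in a few, a division made after the counts were seen. In 16 of the 72 rows a count was found in all 18 libraries: 15 of the Ighv1 family and Ighv8-6, with 4 annotated pseudogenes (Ighv1-28, Ighv1-29, Ighv1-38, Ighv1-62). Their best library held 8.37% to 20.4% of a row's counts. They summed to 31.5 to 53.0 CPM at 14 weeks, to 13.9 to 40.5 CPM at 20 weeks and to 34.6 to 95.6 CPM at 26 weeks. They took 80.3% to 88.7% of heavy V counts at 14 weeks but 10.1% to 28.0% in replicates 1, 3, 4 and 6 at 20 weeks, where the other rows were high. At 100 reads, heavy V counts fell on 22.01 to 25.1 segments at 14 weeks, 10.1 to 21.7 at 20 weeks and 20.8 to 23.9 at 26 weeks.

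These widely counted rows had other patterns than Jchain, Ighm and the light chains. Ighv1-19, the highest of them, was at 6.02, 4.77, 4.23, 5.48, 6.14 and 6.13 CPM at 14 weeks. It was at 4.51, 0.876, 2.10, 0.838, 3.74 and 1.60 CPM at 20 weeks and at 16.3, 8.12, 4.47, 4.65, 19.5 and 11.9 CPM at 26 weeks. The 14 week values lie close together, the lowest are those of 20 weeks replicates 2 and 4, and the ranges of 20 and 26 weeks just meet. Ighv1-19 was higher at 26 than at 20 weeks by 2.24 ± 0.54 on the log2 scale (adjusted p = 0.00696). The pseudogene Ighv1-28 was higher by 2.14 ± 0.59 (adjusted p = 0.0168), Ighv1-39 by 1.90 ± 0.57 (adjusted p = 0.0272) and the pseudogene Ighv1-29 by 2.27 ± 0.71 (adjusted p = 0.0336). None of the 15 tested was called between 14 and 20 or 14 and 26 weeks. Ighv1-74 stayed within 1.56 to 6.27 CPM over the 18 libraries (26 against 20 weeks: -0.09 ± 0.48, adjusted p = 0.929). T cell and precursor B cell lists also had their lowest median at 20 weeks. T cell genes summed to 116.8 to 158.5, 51.2 to 102.1 and 100.7 to 381.0 CPM at the 3 ages, and precursor B cell genes to 1034 to 1367, 408.0 to 865.9 and 1041 to 1643 CPM. Each sum was mostly 1 gene, counted in all 18 libraries. Over all libraries Cd3d had 23495 counts, where Cd3g had 292 and Trac 180. Cd24a had 204276, where Erg had 889 and Vpreb1 162. The sums therefore do not measure these cell types. Cd3d, a part of the T cell receptor complex (1.51 ± 0.29), Cd24a (1.09 ± 0.18) and Erg (3.99 ± 1.07) of these lists were called higher at 26 than at 20 weeks (adjusted p = 0.00159, 0.000622 and 0.0145). The neutrophil list, of the sorted cell type, also had its lowest median at 20 weeks (183874, 87887 and 272667 CPM at 14, 20 and 26 weeks). Of its 14 genes 1 was called higher and 11 lower at 20 against 14 weeks. At 26 against 20 weeks 8 were higher and 1 lower. The part of any of these lists in the heavy V counts was not tested.

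These 4 calls rest on small counts, and some depend on the libraries kept. Ighv1-19 was called in all the fits in which it was tested. The call of Ighv1-28 was lost with only those ages in the fit (adjusted p = 0.0599). Ighv1-39 was lost without replicates 2, 4 or 6 at 20 weeks (adjusted p = 0.0536, 0.0542 and 0.0547) or 1 or 5 at 26 weeks (0.0633 and 0.0701). Ighv1-29 was lost without replicates 2, 4, 5 or 6 at 20 weeks (adjusted p = 0.0635, 0.0555, 0.0556 and 0.0653) or 1 or 6 at 26 weeks (0.0839 and 0.0759). Both were also lost without the filter (adjusted p = 0.0623 and 0.0800) and with only those ages (0.0858 and 0.0861), and Ighv1-29 with the replicate number as a block (0.0533). Without replicate 5 at 20 weeks Ighv1-22 and Ighv1-62 were called higher (adjusted p = 0.0258 and 0.0405), and without replicate 3 at 26 weeks Ighv1-62-3 was (0.0418).

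The other 56 heavy V rows were mixed. Of the 13 with at least 100 reads, 6 had over 90% of their counts in 1 library, while Ighv1-50, Ighv1-78 and Ighv1-41 had counts in 17 libraries with at most 11.1%, 13.8% and 16.4% in any of them. Ighv1-20 had 538 counts in replicate 1 and 728 in replicate 4 at 20 weeks and 1 count elsewhere, and its near copy Ighv1-37 had 413 and 673 there and 7 elsewhere. In these 2 libraries the light V reads were led by Iglv1 and Iglv2, in that order. Iglv2 also led replicate 3 at 26 weeks, where Ighv1-20 and Ighv1-37 were at 0. Ighv5-6 had 365 counts in replicate 3 at 20 weeks, with Ighv5-9 at 281, Ighv5-9-1 at 130 and Ighv5-4 at 127, and the 4 are 92.92% to 95.47% identical. Ighv6-3 had 234 counts in replicate 6 at 20 weeks and 0 in all others. Ighv7-3 had 246 of its 262 counts in replicate 3 at 26 weeks. The leading heavy V segment took 37.6%, 26.9%, 45.4% and 40.8% of heavy V reads in replicates 1, 3, 4 and 6 at 20 weeks, and 11.3% to 24.5% in the other 14 libraries. How far near-identical segments share reads of the same transcript was not tested, so these rows are uncertain as single segments.

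**Figure D5:**
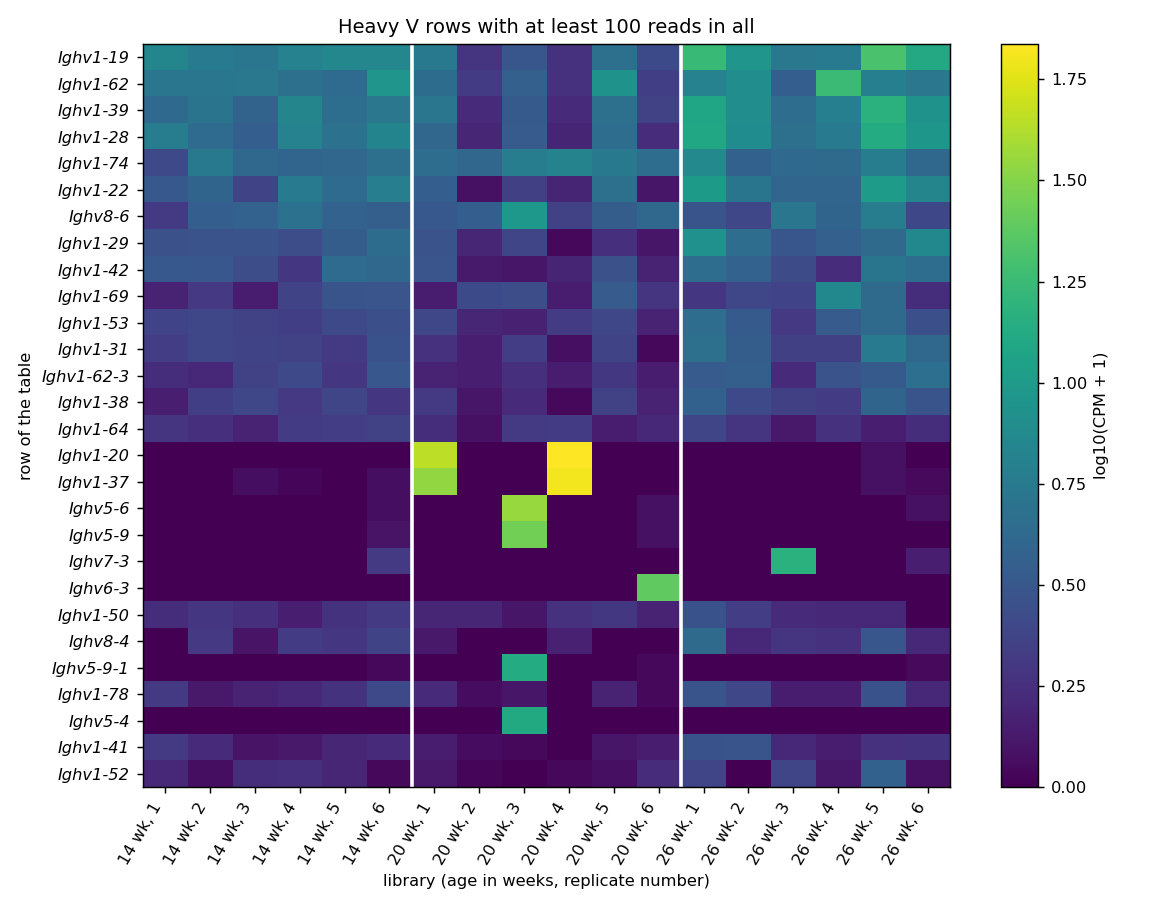
Colour gives log10(CPM + 1) of each heavy V row with at least 100 reads in all (vertical axis) in the 18 libraries (horizontal axis, white lines between ages). The upper 15 rows are coloured in every library, darkest at 20 weeks in replicates 2, 4 and 6, while Ighv1-20, Ighv1-37, Ighv5-6, Ighv6-3 and Ighv7-3 are bright in 1 or 2 libraries.

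Markers of antibody secreting cells moved in part with these rows, and of the B cell markers tested only Cd22 was called. Of a plasma cell list without immunoglobulin genes, 15 genes were counted and 6 were tested. At 20 against 14 weeks 2 were called higher and 0 lower: Xbp1, the transcription factor of secretion (1.06 ± 0.15, adjusted p = 0.000320), and Creld2 (1.56 ± 0.48, adjusted p = 0.0443). Xbp1 had 808 to 5093 counts in every library, also where Jchain was 0. At 26 against 14 weeks 1 was higher, Xbp1 (0.52 ± 0.15, adjusted p = 0.0306), and 1 lower, Edem1 (-0.44 ± 0.14, adjusted p = 0.0444), and at 26 against 20 weeks the same genes were lower (-0.54 ± 0.15 and -0.58 ± 0.14, adjusted p = 0.0164 and 0.00678) and 0 higher. The list summed to 378.0 to 449.2 CPM at 14 weeks, 497.7 to 704.5 at 20 weeks and 336.6 to 493.5 at 26 weeks. Most of this sum was Xbp1 and Edem1, with 45769 and 35366 counts over all libraries and counts in each of the 18. Sdc1 had 80 and Mzb1 243 counts in all, so the sum does not measure plasma cells. Sdc1 (CD138) was at 0 in 15 libraries, with 13 and 37 counts in replicates 1 and 6 at 20 weeks and 30 in replicate 3 at 26 weeks. Mzb1, a chaperone of IgM assembly, had 36, 95, 9 and 60 counts in replicates 1, 4, 5 and 6 at 20 weeks, 17 in replicate 6 at 14 weeks, and 7 and 19 in replicates 3 and 5 at 26 weeks. In replicate 3 at 20 weeks, with the highest Jchain, Sdc1 and Mzb1 were at 0 and Derl3 had 305 counts. That library also had the fewest genes counted (8119), which limits what its zeros show.

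Of 19 B cell genes with counts 6 were tested, and Cd22, an inhibitory receptor, was the only one called (20 against 14 weeks: 2.90 ± 0.81, adjusted p = 0.0270). The list summed to 14.3 to 59.95 CPM at 14 weeks, 2.77 to 106.4 at 20 weeks and 20.2 to 41.4 at 26 weeks. The 20 week range covered both others. Cd22 with 3958 and Bank1 with 1480 counts over all libraries had the most counts of the list. Cd79a, the signalling partner of surface immunoglobulin, had a count in 17 libraries, from 4 to 118. It was at 0 in replicate 3 at 20 weeks, the library with the fewest genes counted, as were Cd79b and Ms4a1. The change of Cd79a from 14 to 20 weeks was 1.09 ± 0.94 (adjusted p = 0.550). Monocyte and macrophage genes (3 of 11 tested) were all called higher at 20 than at 14 weeks and lower at 26 than at 20 weeks, with sums of 199.5 to 515.3, 560.4 to 1174 and 212.0 to 514.7 CPM. The part of any of these cell types in the immunoglobulin counts was not tested. In such bulk libraries fewer cells of a type and less RNA per cell cannot be told apart.

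Genes that handle or sense antibody were examined from lists drawn up with earlier results known. Their counts, like those of the marker lists, stand beside the shares of all genes tested: 4.93% higher and 5.27% lower at 20 against 14, 5.45% and 5.54% at 26 against 14, and 8.03% and 7.98% at 26 against 20 weeks. Of the secretory pathway of the endoplasmic reticulum, 31 of 35 genes were tested, with 5 called higher and 0 lower at 20 against 14 weeks (median 0.29). They were Mcfd2 (1.11 ± 0.21), the translocon subunit Sec61a1 (0.81 ± 0.18), the disulfide isomerase P4hb (0.90 ± 0.22), the chaperone Hspa5 (0.91 ± 0.22) and Herpud1 (0.61 ± 0.19). At 26 against 20 weeks 4 of the 31 were higher and 4 lower (median 0.15), not far from those shares, with Hspa5 and Sec61a1 among those that fell (by 0.93 ± 0.22 and 0.85 ± 0.18). At 26 against 14 weeks 6 were higher and 0 lower (median 0.32), such as Sec61b (1.43 ± 0.31) and Spcs1 (1.16 ± 0.24). Of the genes of B cell receptor signalling, many of them also used by myeloid cells, 13 of 16 were tested. At 26 against 14 weeks 1 was higher, Cd81 (1.31 ± 0.23), and 5 were lower, such as the phosphatase Inpp5d (-1.21 ± 0.20) and Plcg2 (-0.91 ± 0.17). Of 10 receptors that bind immunoglobulin 5 were tested, and Fcer1g, the shared signalling chain of Fc receptors, was called higher at 26 weeks against 14 (1.00 ± 0.23, adjusted p = 0.00872) and against 20 weeks (0.79 ± 0.23, adjusted p = 0.0222).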

How the data were processed

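RNA from 18 libraries of sorted spleen neutrophils, 6 at each of 3 ages, was extracted with a Qiagen RNeasy Plus Micro kit and sequenced, per the labels' protocols, from 1 ng of cDNA (Nextera XT) in single reads of 100 nt. What the authors deposited is a table of raw counts, 1 row per gene symbol. The submitters' processing notes list the tools DESeq, DESeq2 1.12.3, HTSeq 0.6.1, STAR 2.4.2a and Trimmomatic 0.32, and the build GRCm38.p4. The annotation, strand setting and treatment of reads that match several genes are, in the sources used here, not given. Ages and replicate numbers were taken from the titles, and no run, lane or date was given, so no batch could be entered.

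Rows were chosen by symbol and located through GENCODE M21 models of GRCm38, from which exon lengths, annotation classes and printed sequences were also taken. All genes were fitted together with edgeR 4.0.16 in R 4.3.3 (filterByExpr by age, scaling by TMM, glmQLFit with robust set, glmQLFTest, no term but age), and the Benjamini-Hochberg adjustment ran over 10104 genes. Each SE is the log2 change divided by the root of its F value. Segments were counted per library without a filter. Shares of V reads were given from 100 V reads on, with 95% exact Clopper-Pearson intervals, and expected segment numbers were computed for 100 reads drawn without replacement. A count of 3 served as the floor. Intervals and floors cover counting error only, since the reads carry no molecular identifiers.

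The text names Jchain, all constant region genes, the 10 segments with the largest totals, the called segments, the V segments leading a chain in a library with at least 25% of it, and up to 4 called genes of each other list by smallest p. A few other rows (such as Ighd's counts, Ighv1-74, Ighv7-3, the marker counts per library and genes called when a library was left out) were chosen after their values were seen, and so was the division of heavy V rows. The members and the gene lists were chosen with earlier results of these data known. Alternatives were RLE and upper quartile scaling, library sizes without the member rows, DESeq2 1.42.0, limma-voom (limma 3.58.1) with quality weights, no filter and a stricter filter, fits of only those ages, a block for the replicate number, other minimum counts, and each library left out. Division by exon length was added after seeing the data. The fits were also run on simulated data, but no outcome is given here, so nothing is concluded from that run.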

Additional observations from a re-analysis of the deposited data

Results flagged for a closer look

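In 58 groups of 6 libraries (23 measures by age), the highest or lowest library was set against the spread of its group, and 27 groups held a library that stood far from the other 5. Chance marks about 1 in 20 such groups, and groups in which most libraries are at 0 are marked by any single count. Replicate 6 at 14 weeks was the library in 7 of them, replicate 6 at 20 weeks in 4 and replicate 4 at 26 weeks in 4, and each other library in at most 2.

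Among heavy constant genes, replicate 4 at 26 weeks stood above its age in Ighg2c (79.4 CPM), Ighg2b (14.9 CPM) and Ighg1 (0.207 CPM, 2 counts). Replicate 6 at 20 weeks did so in Ighg3 (3.51 CPM), and replicate 2 at 14 weeks in Ighg1 (0.0852 CPM, a single count).

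Among light constant genes, Igkc stood out in replicate 6 at 14 weeks (12.4 CPM) and replicate 6 at 20 weeks (1391 CPM). Iglc1 stood out in replicate 6 at 14 weeks (1.123 CPM) and replicate 1 at 20 weeks (1510 CPM). Iglc2 stood out in replicate 3 at 14 weeks (3.58 CPM), and Iglc3 in replicate 6 at 14 weeks (0.346 CPM) and replicate 3 at 26 weeks (115.0 CPM).

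Among light V segments, Iglv1 stood out in replicate 6 at 14 weeks (0.432 CPM), replicate 1 at 20 weeks (728.3 CPM) and replicate 5 at 26 weeks (2.09 CPM). Iglv2 stood out in replicate 3 at 14 weeks (1.30 CPM), replicate 4 at 20 weeks (936.5 CPM) and replicate 3 at 26 weeks (45.3 CPM), and Iglv3 in replicate 3 at 20 weeks (637.7 CPM). In replicate 3 at 14 weeks the raised pair was Iglv2 with Iglc2, at 16 and 44 counts. Igkv4-59 stood out in replicate 6 at 20 weeks (268.3 CPM). Igkv5-39 stood out there too (96.8 CPM), and in replicate 6 at 14 weeks (0.0864 CPM) and replicate 2 at 26 weeks (0.104 CPM), each of the last pair being a single count.

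Among heavy V rows, Ighv1-62, an annotated pseudogene, stood out in replicate 6 at 14 weeks (8.03 CPM) and replicate 4 at 26 weeks (16.96 CPM), and Ighv1-20 in replicate 5 at 26 weeks (0.209 CPM, a single count). Replicate 6 at 14 weeks also had the most member rows with a count of its age (60 of 131). This library held 91 counts of Ms4a1, a B cell surface gene that had 0 counts in all other 14 week libraries, and the part of B cells in its immunoglobulin counts was not tested.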

How the results depend on the processing

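The numbers of immunoglobulin rows called (3, 2 and 6 for 20 against 14, 26 against 14 and 26 against 20 weeks) depended on the test and the filter. In limma-voom with quality weights they were 1 and 0 for the first and second, while calls over all genes went from 551 higher and 560 lower to 1349 and 1330 for the second. Without a filter on low counts they were 8 for the first and 13 for the third, the added rows being tested only in that fit and mostly high in 1 or 2 libraries. For the third, DESeq2 gave 10, with 1258 genes higher and 1094 lower in all against 811 and 806, a minimum of 10 CPM in 6 libraries gave 2, with 3 rows tested, and only the ages compared gave 2. Only the ages compared gave 1 for the second, where Jchain did not pass the filter and was not tested. Leaving out 1 library at a time gave 2 to 4, 1 to 2 and 4 to 8. No direction of a called gene reversed in any of these fits. For single genes, 1436 of the alternative values stayed on the same side of the threshold, 38 lost and 9 gained a call. With at least 3 counts asked of a row, the mean number of rows per library was 37.3 at 20 and 34.3 at 26 weeks. With at least 1000 V reads, the leading heavy V share at 26 weeks was 24.5%, from the only library left. The means and shares per age moved by less than the spread between libraries in the other alternatives. The relations were not all stable. Without the 2 libraries farthest from the median of Jchain, r of Jchain with Ighm went from 0.549 to -0.506 at 14 weeks. It went from 0.941 to 0.462 at 20 weeks and from 0.809 to -0.0609 at 26 weeks. For Jchain with Mzb1, r went from 0.516 to -0.487 at 20 weeks and from 0.316 to -0.692 at 26 weeks. At 14 weeks that pair had -0.558 and -0.586. There Mzb1 had a count in 1 of 6 libraries and Jchain in 3, so these values carry little meaning. Depth limits the low rows: 79 of 120 segments had under 100 reads over all libraries.

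Libraries with the same replicate number were not closely correlated. Over 18 such pairs the correlation of deviations from the age means ran from -0.0527 to 0.136, with 1 over 0.1. Of the 18 libraries, 6 correlated best with their own number, and whether this exceeds chance was not tested. With the replicate number as a block 2, 1 and 5 rows were called.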

Other observations

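Within each age, 4 relations were computed over the 6 libraries on log2 CPM (Jchain with Igkc, Ighm and Mzb1, and Ighm with Ighd), 12 in all, and none passed adjustment. The closest was Jchain with Ighm at 20 weeks, with Pearson r = 0.941 (exact permutation p = 0.0111, adjusted 0.133) and Spearman rho = 0.714 (exact permutation p = 0.136, adjusted 0.525). Without the 2 libraries farthest from the median of Jchain, r was 0.462, so the relation rests on those libraries. Jchain with Igkc at 20 weeks had r = 0.192 (exact permutation p = 0.71, adjusted 0.774).

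Few J segments had counts. Ighj1 held 114 counts in 14 libraries, Iglj1 held 30 in replicate 1 at 20 weeks and Igkj5 held 14 in replicate 6 at 20 weeks.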
